A study of Mus musculus with 17 samples.

Results

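The genes described here are 10 genes of early cartilage, chosen by name out of 34682 genes in the expression tables: Col2a1, Col11a1, Col11a2, Col9a1, Col9a2, Col9a3, Acan, Hapln1, Matn1 and Fgfr3. RNA was sequenced from mouse limb buds at E12.5 (embryonic day). Embryos were wild type (WT) or carried a structural variant of the Sox9/Kcnj region on chromosome 11. The variants were the duplications Dup-C (2 libraries) and Dup-L (2), the duplication Dup-L combined with the deletion ΔBor (Dup-LΔBor, 4), and ΔBor alone as heterozygotes (ΔBor het, 2) and as a homozygote (ΔBor hom, 1). WT had 4 libraries, so 15 libraries in 6 groups were used. The 2 fingertip samples of E17.5 were not analysed here.

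The labels do not state whether Dup-C, Dup-L and Dup-LΔBor embryos carried 1 or 2 altered copies, which limb was taken, or whether replicates came from separate embryos or pools. What the tests measure is the spread among these particular samples, and it may be technical. ΔBor hom is a single library, and its spread is taken from the other groups.

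Cartilage forms where limb mesenchyme condenses and turns on SOX9, which with SOX5 and SOX6 drives the genes of the cartilage matrix. That matrix is a network of fibrils of type II collagen, with type XI collagen within and type IX collagen on the surface of the fibrils, filled with the proteoglycan aggrecan bound to hyaluronan. FGFR3 is a receptor of the same cells that restrains the growth of cartilage.

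Libraries held between 34486256 and 53711742 counts. Pitx1, a gene of the hindlimb bud, separated them into 11 libraries with 39.9 to 116 CPM (counts scaled to library size, with TMM factors) and 4 with 0.518 to 1.83 CPM. Both Dup-L libraries and WT replicates 2 and 4 were in the low set. Tbx5, a forelimb gene, was at 86.2 to 136 CPM in the 11 libraries and at 184 to 233 CPM in the 4, and Tbx4, a hindlimb gene, at 62.2 to 109 and at 18.8 to 27.6 CPM. Library numbers in the column headers fall into a first batch (all Dup-C, Dup-L and ΔBor libraries, WT 1 and WT 2) and a second batch (all Dup-LΔBor libraries, WT 3 and WT 4). Dup-LΔBor replicates R4 and R5 carry 1 library number between them. The libraries also differed in how levels depend on the GC content of a transcript: the slope was -0.39 and -0.45 log2 units per 10 points of GC in Dup-L, between 0.07 and 0.31 in Dup-LΔBor, -0.35 and 0.01 in ΔBor het, -0.24 in ΔBor hom, 0.07 and -0.09 in Dup-C, and between 0.09 and 0.23 in WT. Genotypes were compared first within the 11 libraries high in Pitx1.

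Compared per transcript length, type II collagen led the set. In the 11 libraries high in Pitx1 the median level was 105 FPKM (fragments scaled to transcript length and library size) for Col2a1, 53.3 FPKM for Col9a1, 38.1 FPKM for Col9a2 and 32.4 FPKM for Col9a3. Col11a1 followed with 17.6 FPKM and Fgfr3 with 11.9 FPKM, and the lowest were Hapln1 (8.59 FPKM), Col11a2 (5.22 FPKM), Matn1 (2.47 FPKM) and Acan (2.21 FPKM). Over the 15 libraries, Col10a1, the collagen of hypertrophic cartilage, had 0.51 to 2.34 CPM and Ibsp, a bone matrix gene, 0 CPM in every library. Other markers of more mature cartilage and bone were detected: Ihh at 1.53 to 8.05 CPM, Sp7 at 2.38 to 5.69 CPM and Runx2 at 7.31 to 25.6 CPM, and the list of 13 such genes summed to 83.8 to 175 CPM.

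The fibrillar collagens come first by role. Col2a1, the chain of type II collagen, had levels (CPM) of 635 and 401 in Dup-C, 349 and 357 in Dup-L, 970, 653, 566 and 646 in Dup-LΔBor (R2 to R5), 489 and 726 in ΔBor het, 527 in ΔBor hom and 612, 759, 432 and 642 in WT (1 to 4). Both Dup-L libraries lay below all 4 WT libraries, as for 24.6% of all genes, and the other mutant groups overlapped WT. Col11a1, a chain of type XI collagen, had levels (CPM) of 149 and 91.0 in Dup-C, 201 and 198 in Dup-L, 166, 111, 110 and 166 in Dup-LΔBor, 191 and 197 in ΔBor het, 148 in ΔBor hom and 152, 245, 129 and 190 in WT. Col11a2, another chain of the same collagen, had levels (CPM) of 45.1 and 16.4 in Dup-C, 34.2 and 32.2 in Dup-L, 58.7, 37.0, 38.8 and 45.2 in Dup-LΔBor, 31.6 and 53.1 in ΔBor het, 33.8 in ΔBor hom and 36.6, 74.2, 23.3 and 62.9 in WT. For both genes the second Dup-C library was the lowest of all 15 and WT 2 the highest.

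Type IX collagen is built from the products of 3 genes and links the fibrils to their surroundings. Col9a1 had levels (CPM) of 300 and 237 in Dup-C, 246 and 267 in Dup-L, 261, 229, 230 and 222 in Dup-LΔBor, 265 and 248 in ΔBor het, 272 in ΔBor hom and 250, 311, 135 and 216 in WT. WT 3 stood below every other library, and the others lay between 216 and 311 CPM. Col9a2 had levels (CPM) of 133 and 56.4 in Dup-C, 91.6 and 88.3 in Dup-L, 171, 135, 120 and 124 in Dup-LΔBor, 111 and 154 in ΔBor het, 113 in ΔBor hom and 101, 181, 86.7 and 137 in WT. Col9a3 had levels (CPM) of 127 and 52.8 in Dup-C, 112 and 110 in Dup-L, 191, 152, 131 and 176 in Dup-LΔBor, 101 and 131 in ΔBor het, 94.9 in ΔBor hom and 90.2, 184, 98.8 and 182 in WT. For Col9a2 and Col9a3 the WT libraries high in Pitx1 lay below those low in Pitx1, as for 22.9% of all genes. For both genes all 4 Dup-LΔBor libraries lay above WT 1 and WT 3, as for 17.7% of all genes.

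Acan encodes aggrecan, the large proteoglycan that holds water in cartilage, and Hapln1 the link protein that fastens it to hyaluronan. Acan had levels (CPM) of 15.9 and 4.16 in Dup-C, 22.2 and 20.6 in Dup-L, 34.2, 19.0, 19.4 and 24.1 in Dup-LΔBor, 16.6 and 23.4 in ΔBor het, 11.8 in ΔBor hom and 20.6, 34.4, 11.2 and 36.4 in WT. Hapln1 had levels (CPM) of 49.4 and 49.9 in Dup-C, 78.1 and 76.8 in Dup-L, 46.5, 33.2, 39.0 and 54.3 in Dup-LΔBor, 60.8 and 58.9 in ΔBor het, 54.1 in ΔBor hom and 57.3, 70.1, 43.3 and 71.7 in WT. The 2 genes differed in order: the second Dup-C library was lowest for Acan but not for Hapln1, and Dup-L was highest for Hapln1 but not for Acan.

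Matn1 encodes matrilin 1, an adaptor protein of the cartilage matrix, and was the most variable member. It had levels (CPM) of 5.81 and 0.403 in Dup-C, 6.65 and 6.37 in Dup-L, 15.8, 2.91, 13.6 and 5.75 in Dup-LΔBor, 2.51 and 9.22 in ΔBor het, 3.17 in ΔBor hom and 8.88, 22.5, 3.12 and 30.1 in WT. The highest of the 11 libraries high in Pitx1 held 39.2 times the level of the lowest, which rests on 15 counts. Fgfr3 had levels (CPM) of 68.8 and 44.4 in Dup-C, 52.1 and 59.1 in Dup-L, 141, 109, 92.7 and 110 in Dup-LΔBor, 47.6 and 57.0 in ΔBor het, 46.4 in ΔBor hom and 56.2, 87.6, 59.1 and 95.5 in WT. The 4 Dup-LΔBor libraries lay above WT 1 and WT 3, the WT libraries high in Pitx1, as for 17.7% of all genes.

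**Figure D1:**
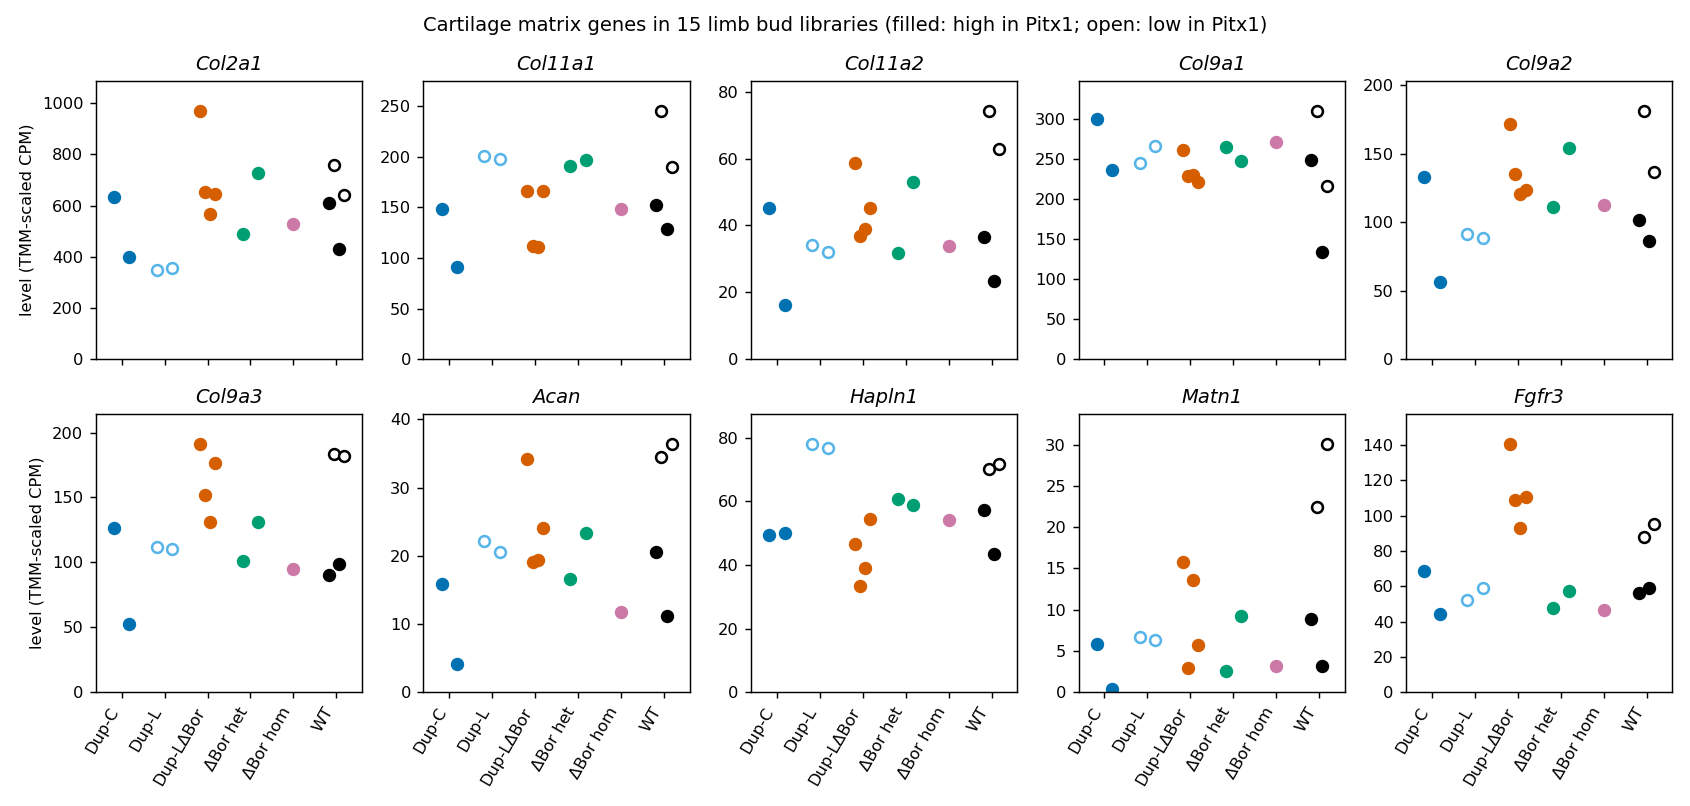
Level of each of the 10 genes (vertical axes, TMM-scaled CPM, from 0) in the 15 limb bud libraries by group (horizontal axes); each point is 1 library, filled where Pitx1 was high and open where it was low. Fgfr3 sits at 92.7 to 141 CPM in Dup-LΔBor, and the open WT points lie above the filled WT points for 9 of the 10 genes, the exception being Col9a1, as for 22.9% of all genes.

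The members varied more between libraries than a typical gene. Over the 11 libraries high in Pitx1 their SD on the log2 CPM scale had a median of 0.48, against 0.28 over all genes tested, and 9 of 10 members were above that value. Much of this spread was common to the members. The second Dup-C library was the lowest of the 11 for 8 members (all but Col9a1 and Hapln1), and Dup-LΔBor R2 was the highest for 7 (Col2a1, Col11a2, Col9a2, Col9a3, Acan, Matn1 and Fgfr3). Among the 45 pairs of members the median Pearson r across these 11 libraries was 0.62, 38 pairs were above 0 and 17 above 0.7. These values include the second Dup-C library, and no value over all pairs of genes is given beside them. The closest pair was Col11a2 and Col9a2 (r = 0.96), followed by Col11a2 and Acan (r = 0.93) and Col2a1 and Col11a2 (r = 0.92). Hapln1 had a mean r of 0.02 with the other members and Col9a1 one of 0.25, against 0.70 for Col11a2. These correlations are descriptions over 11 libraries that share batches, genotypes and GC slopes. Hapln1, with the lowest GC content of the members (39.8%), had r = -0.69 with the GC slope of the libraries and Fgfr3 (56.4%) r = 0.75, and the part of that slope in the correlations was not tested. In whole limb buds, fewer cartilage cells and less RNA per cell cannot be told apart.

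**Figure D2:**
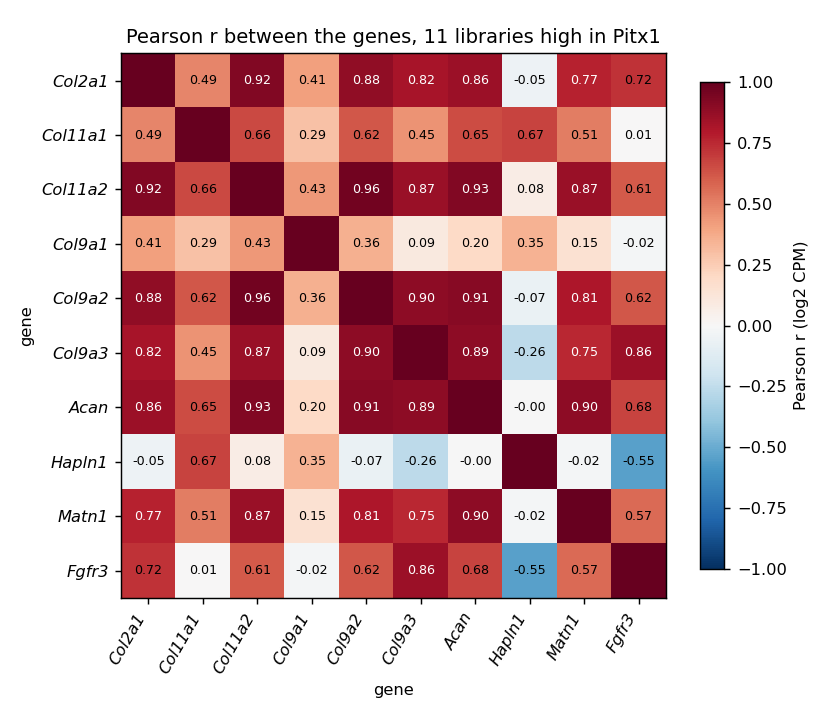
Pearson r between the log2 CPM of each pair of the 10 genes over the 11 libraries high in Pitx1 (both axes list the genes, colour and printed value give r). Col2a1, Col11a2, Col9a2, Col9a3 and Acan have values of 0.82 or more with one another, and Hapln1 has values near or below 0 with most genes.

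RefSeq promoter windows (build GRCm38.p6) were available for 8 of the 10 members in 10 windows, of which the 250 bases before the transcription start are considered. Col2a1 and Col9a3 are named only. The windows shown are those of the genes that moved together most closely across libraries (Col11a2, Col9a2 and Acan) and of Fgfr3, the member called in Dup-LΔBor. Capitals mark matches, on either strand, to a GC box (GGGCGG or CCGCCC, overlapping matches included) or a TATA box (TATAAA or TTTATA). The coordinates are chr17:34038888-34039137 for Col11a2, chr4:121039316-121039565 for Col9a2, chr7:79052976-79053225 for Acan and chr5:33721474-33721723 for the first of 2 windows of Fgfr3, all on the + strand.
Col11a2: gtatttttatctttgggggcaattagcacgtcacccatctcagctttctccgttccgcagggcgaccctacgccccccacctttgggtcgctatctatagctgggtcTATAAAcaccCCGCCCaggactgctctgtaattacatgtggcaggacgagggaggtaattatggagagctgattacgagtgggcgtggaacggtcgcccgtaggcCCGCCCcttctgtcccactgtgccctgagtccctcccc
Col9a2: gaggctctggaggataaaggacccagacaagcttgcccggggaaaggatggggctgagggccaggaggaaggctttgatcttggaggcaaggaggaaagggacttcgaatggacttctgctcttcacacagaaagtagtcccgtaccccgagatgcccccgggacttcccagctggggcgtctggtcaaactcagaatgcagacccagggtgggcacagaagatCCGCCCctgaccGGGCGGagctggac
Acan: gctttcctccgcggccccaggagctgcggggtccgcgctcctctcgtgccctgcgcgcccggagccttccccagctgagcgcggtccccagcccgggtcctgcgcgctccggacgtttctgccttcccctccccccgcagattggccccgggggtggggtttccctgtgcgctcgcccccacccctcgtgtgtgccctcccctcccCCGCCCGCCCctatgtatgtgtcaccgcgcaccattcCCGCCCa
Fgfr3: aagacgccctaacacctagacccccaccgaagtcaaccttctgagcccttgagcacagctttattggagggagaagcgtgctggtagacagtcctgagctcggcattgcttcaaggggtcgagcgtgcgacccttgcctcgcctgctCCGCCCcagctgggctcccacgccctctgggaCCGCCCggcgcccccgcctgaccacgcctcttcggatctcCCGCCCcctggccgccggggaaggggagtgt
A GC box was found in 7 of the 10 windows, against 32.7% of 32851 RefSeq promoters of the same length, and a TATA box in 1, that of Col11a2, against 12.4%. The short SOX cores ACAAAG and ACAATG, searched on both strands, were in 0 of the 10 windows and in 25.2% of all promoters. A match or its absence describes letters in these windows only.

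Genotype was compared with WT in the 11 libraries high in Pitx1, where WT has 2 libraries (WT 1 and WT 3). Fgfr3 rose in Dup-LΔBor, with 113 ± 20.01 CPM (SD, n = 4) against 57.6 ± 2.02 CPM in WT (SD, n = 2), a log2 fold change of 0.96 (SE 0.19, edgeR quasi-likelihood test, adjusted p = 0.0212). It was the only member of 10 to pass the threshold (adjusted p under 0.05 over all 17465 genes tested) in that comparison, where 4.78% of all genes passed in either direction and 3.05% were higher. The remaining 9 members did not pass. Col9a3 came next at 0.77 on the log2 scale (SE 0.30, adjusted p = 0.155), then Matn1 at 0.66 (SE 1.04), Acan 0.59, Col11a2 0.57, Col9a2 0.54, Col2a1 0.43 and Col9a1 0.28. Col11a1 (-0.03) and Hapln1 (-0.23) were the 2 below 0. The median over the 10 members was 0.55, beside -0.02 over all genes tested. All 4 Dup-LΔBor libraries lay above both WT libraries for Col11a2, Col9a2, Col9a3 and Fgfr3, 4 of 10 members, against 17.7% of all genes, and no member lay below WT in this way, against 15.7%.

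The Fgfr3 call was lost without WT 1, while the fold change stayed nearly the same. WT 1 (56.2 CPM) was close to WT 3, which is then the only WT library. A call lost in such a fit need not rest on WT 1. With batch as a term, or without WT 1, the log2 fold change was 0.92 with an adjusted p of 0.133 in edgeR, and Col9a1 passed instead (0.79, adjusted p = 0.0335 with the batch term). Of all genes 0.956% passed with the batch term and 1.05% without WT 1. All Dup-LΔBor libraries belong to the second batch, which has WT 3 as its only WT library high in Pitx1, at 59.1 CPM of Fgfr3. With offsets for GC content and length the Fgfr3 value was 0.92 (adjusted p = 0.00654, with 11.9% of all genes called), and limma on log2(FPKM + 1) without a filter gave an adjusted p of 0.0696.

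In the other 3 mutant groups no member passed in edgeR, and 0 of the 10 had an unadjusted p under 0.05, against 7.02% of all genes in Dup-C, 21.2% in ΔBor het and 21.1% in ΔBor hom. DESeq2 also called 0 members in each, and the share of all genes that passed in edgeR was 0.00573% in Dup-C, 0.298% in ΔBor het and 0.0687% in ΔBor hom. In Dup-C the members' median log2 fold change was -0.03, with values between -0.92 (Matn1) and 0.47 (Col9a1). The 2 Dup-C libraries were far apart for most members, as for Col9a2 at 94.7 ± 54.2 CPM (SD, n = 2), and none of the 10 members separated them from WT, against 19% of all genes higher and 16.9% lower without overlap. Without the second Dup-C library, which stood lowest for most members, 0 members passed in edgeR and the median was 0.28. In ΔBor het the median was 0.30. Both ΔBor het libraries lay above both WT libraries for Col11a1, Col9a2, Col9a3 and Hapln1, against 22.8% of all genes. Col11a1 had 194 ± 4.04 CPM in ΔBor het and 140 ± 16.5 CPM in WT (SD, n = 2 each), a log2 fold change of 0.45 (SE 0.25, edgeR adjusted p = 0.328). In the ΔBor hom library the median was 0.03, with Matn1 at -0.93 and Col9a1 at 0.49. Without WT 1, Col9a1 passed in all 3 comparisons: its log2 fold change was 0.98 in Dup-C (edgeR adjusted p = 0.00964) and 0.91 in ΔBor het (adjusted p = 0.00724), and its adjusted p in ΔBor hom was 0.009. In these fits 5.37% of all genes passed in Dup-C, 11% in ΔBor het and 12.2% in ΔBor hom, so 1 of 10 members is near the share of all genes. WT 3, then the only WT library, held the lowest Col9a1 level of all 15. With offsets for GC content and length no member passed in the 3 groups, and the members' median was 0.05 in Dup-C, 0.52 in ΔBor het and 0.23 in ΔBor hom.

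**Figure D3:**
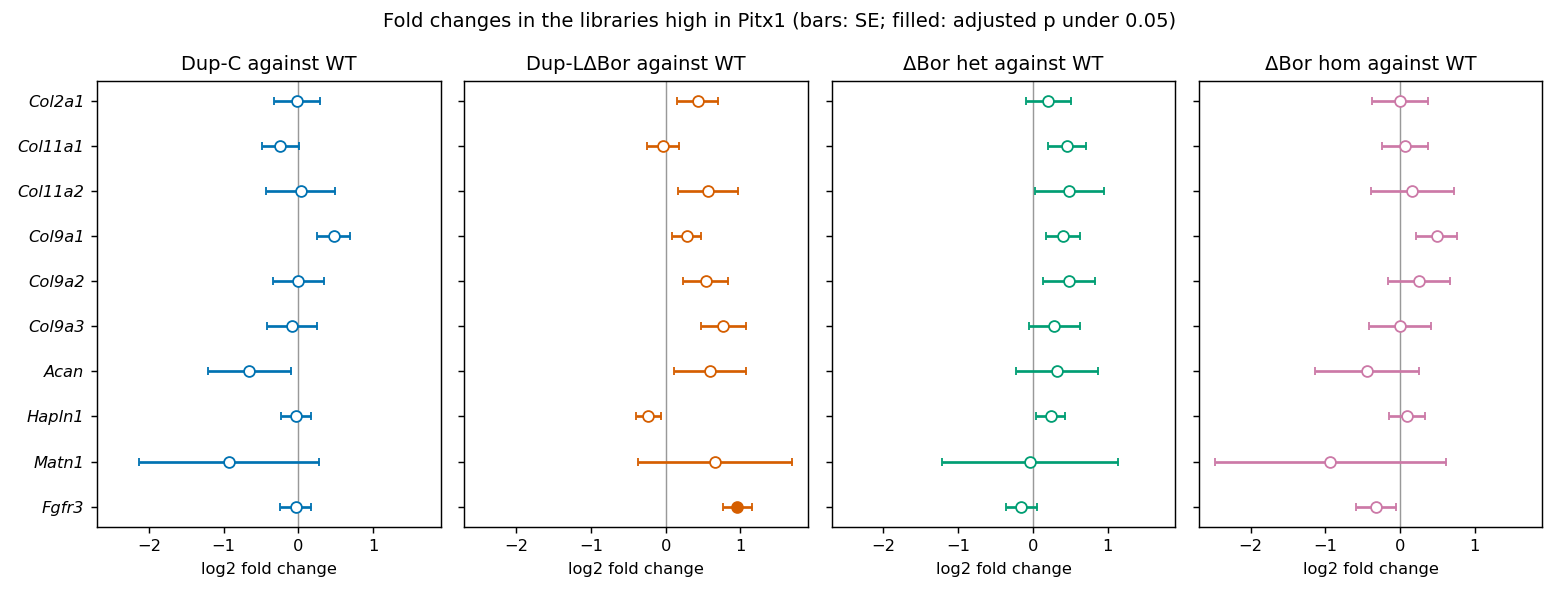
Log2 fold change against WT (horizontal axes) of the 10 genes in Dup-C, Dup-LΔBor, ΔBor het and ΔBor hom, fitted by edgeR to the 11 libraries high in Pitx1; points are estimates, bars their SE, and filled points have an adjusted p under 0.05. Fgfr3 in Dup-LΔBor (0.96) is the only filled point, and Matn1 has the widest bars.

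Among 35 tested genes from a longer list of cartilage genes, 1 rose in Dup-LΔBor and 0 fell, a share near the 3.05% of all genes that rose. The gene was Wwp2, a ubiquitin ligase gene that is expressed in cartilage and hosts miR-140, at 800, 635, 556 and 735 CPM in Dup-LΔBor, against 288 and 365 CPM in WT 1 and WT 3 (log2 fold change 1.05, SE 0.25, edgeR adjusted p = 0.0424). The list's median was 0.23, beside -0.02 over all genes. Sox5 and Sox6, partners of SOX9, had log2 fold changes of 0.41 and 0.46 (adjusted p = 0.097 and 0.107). None of the 35 passed in Dup-C, ΔBor het or ΔBor hom, where the list's medians were -0.21, 0.25 and -0.13.

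Markers of other cells also differed in Dup-LΔBor, where 4.78% of all genes passed in either direction and 3.05% were higher. Of 9 surface ectoderm genes 4 fell, and the summed level of the 9 was 627 to 774 CPM in Dup-LΔBor against 871 to 1074 CPM in WT 1 and WT 3. A low ectoderm sum was not particular to Dup-LΔBor. The remaining mutant groups were below both WT libraries too: ΔBor het had 580 to 650 CPM, ΔBor hom 571 CPM and Dup-C 716 to 852 CPM. Of the 9 genes, Krt14 also passed in ΔBor het (log2 fold change -0.86, edgeR adjusted p = 0.0341). Erythroid genes summed to 2150 to 3467 CPM in Dup-LΔBor and 3705 to 5031 CPM in WT, with 1 of 7 lower in Dup-LΔBor. Their sum was below WT in ΔBor het as well (3092 to 3225 CPM). It was within the WT range for Dup-C (4239 to 4281 CPM) and above it for ΔBor hom (6300 CPM). Of 9 hypertrophic cartilage and bone genes 1 rose in Dup-LΔBor, Spp1, which encodes osteopontin (log2 fold change 2.11, edgeR adjusted p = 0.021). Of 9 joint genes and of 7 macrophage genes 1 each rose there. No gene passed in Dup-LΔBor in the lists of connective tissue, tendon, skeletal muscle, endothelium, nerve and glia, distal mesenchyme or limb mesenchyme. The part of these other cells in the Fgfr3 result was not tested.

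Dup-L had no library high in Pitx1, so it was compared with WT 2 and WT 4, the WT libraries that were also low. In these 4 libraries 7 of 10 members fell in Dup-L: Col2a1, Col11a2, Col9a2, Col9a3, Acan, Matn1 and Fgfr3. In the same comparison 16.5% of all 16435 genes tested were lower and 33.9% passed in either direction. Matn1 changed most, with a log2 fold change of -1.996 (SE 0.16, edgeR adjusted p = 0.0028), followed by Col11a2 at -1.03 (SE 0.11) and Col2a1 at -0.97 (SE 0.11, both adjusted p = 0.00332). Col9a2 had -0.81, Acan -0.71, Col9a3 -0.71 and Fgfr3 -0.70. All 7 lay below both WT libraries in both Dup-L libraries, against 35.5% of all genes. Col11a1 (-0.11), Col9a1 (-0.02) and Hapln1 (0.14) did not pass, and Hapln1 lay above both WT libraries in both Dup-L libraries, against 34.7% of all genes.

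The number of calls changed when single libraries were left out, in fits added after seeing the data. A fit without 1 Dup-L library has little left to estimate the spread. A call lost there need not rest on that library. Without the first Dup-L library 1 member passed (Matn1, edgeR adjusted p = 0.0496) where 0.131% of all genes did, and without the second 0 members and 0 genes passed, with 7 members at an unadjusted p under 0.05 in each fit. In these 2 fits the log2 fold changes of the 7 members lay between -2.05 and -0.64. Within the first batch, which leaves WT 2 as the only WT library, 9 members fell and 44.8% of all genes passed in either direction, the spread then coming from the 2 Dup-L libraries alone. Matn1 had -1.79, Col11a2 -1.16 and Col2a1 -1.11 in that fit, and Col11a1 (-0.30) and Col9a1 (-0.28) also passed. Without WT 2, so against WT 4 of the second batch, 8 members passed and 47.3% of all genes did. Col9a1 was then higher in Dup-L (0.26) and 7 members were lower.

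The 3 members that did not pass had the lowest GC content of the 10: 39.8% for Hapln1, 48.0% for Col11a1 and 52.2% for Col9a1. With offsets for GC content and transcript length, an alternative chosen after seeing the data, 1 member of 10 passed in the same 4 libraries, against 0.703% of all genes. Matn1 then had a log2 fold change of -1.65 (SE 0.16, edgeR adjusted p = 0.0154), Acan -0.34, Fgfr3 -0.30, Col2a1 -0.19, Col11a2 -0.18, Col9a3 -0.16 and Col9a2 -0.05. The median of the members was -0.71 without the offsets and -0.19 with them, beside 0.00 and 0.01 over all genes. The number of genes called was 5567 of 16435 without the offsets and 107 of 15222 with them. The GC slope was -0.39 and -0.45 in the Dup-L libraries, and 0.12 in WT 2 and 0.15 in WT 4. Slope and genotype therefore cannot be told apart in these libraries, and the offsets can remove differences of either kind. The part of GC content in the result was not tested.

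Over all 15 libraries, with all 4 WT libraries as controls, Col2a1 was the only member that fell in Dup-L: 353 ± 5.51 CPM in Dup-L (SD, n = 2) and 611 ± 135 CPM in WT (SD, n = 4), a log2 fold change of -0.79 (SE 0.26, edgeR adjusted p = 0.0328). In that comparison 16.6% of all 17655 genes tested were lower and 32.4% passed in either direction. Both Dup-L libraries lay below all 4 WT libraries for Col2a1, against 24.6% of all genes, and above them for Hapln1, against 26.4%. With GC and length offsets the Col2a1 value was 0.03 (adjusted p = 0.949). Without 1 of the Dup-L libraries, WT 2 or WT 4 it lay between -0.80 and -0.66 and did not pass in any of these 4 fits (adjusted p between 0.0592 and 0.163).

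**Figure D4:**
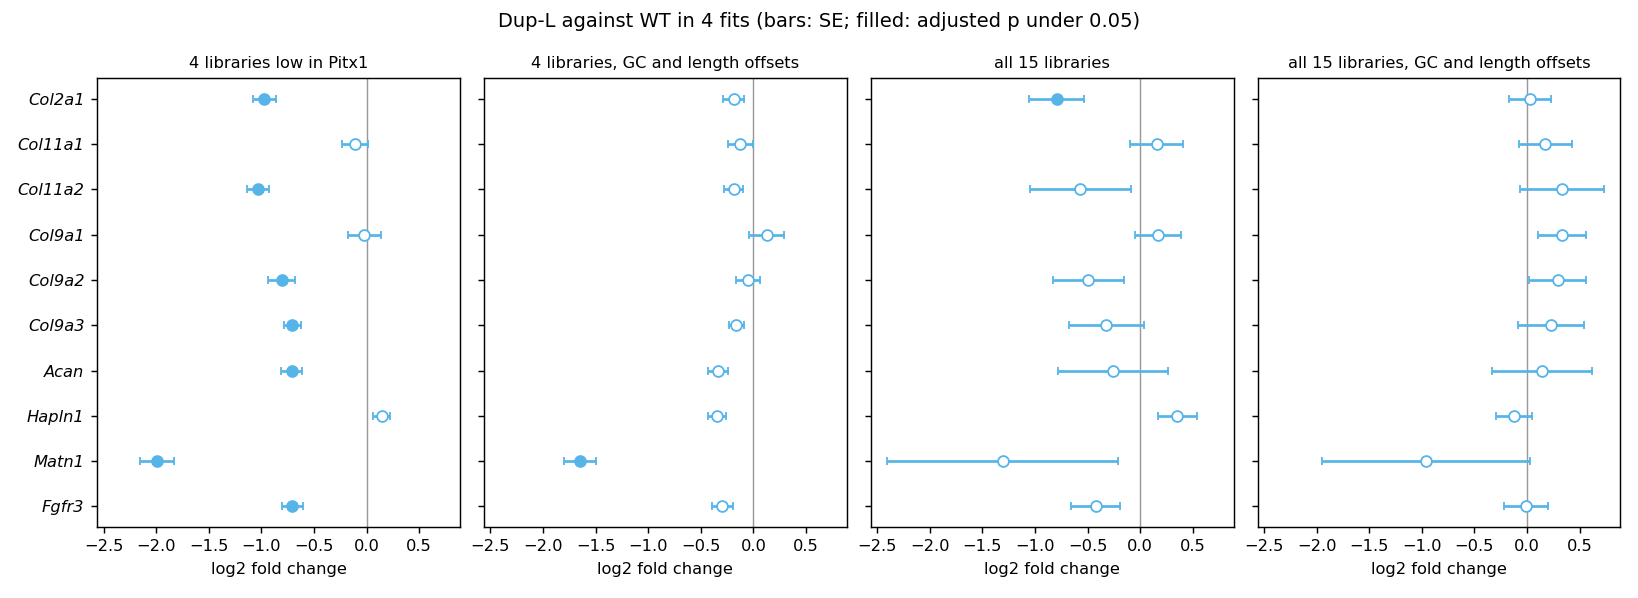
Log2 fold change, Dup-L against WT (horizontal axes), for each of the 10 genes in 4 edgeR fits: the 4 libraries low in Pitx1 without and with offsets for GC content and length, and all 15 libraries without and with them; bars are SE and filled points have an adjusted p under 0.05. The 4 panels hold 7, 1, 1 and 0 filled points.

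In the longer cartilage list, 13 of 35 genes fell in Dup-L in the 4 libraries low in Pitx1 and 2 rose, Otor (log2 fold change 0.75) and Trps1 (0.44), where 16.5% of all genes fell. With offsets for GC content and length 0 of the 35 passed and the median was -0.18. Without the offsets the median was -0.34, beside 0.00 over all genes. Those that fell included Comp, a matrix protein gene (log2 fold change -1.74), Nkx3-2, a transcription factor gene of early cartilage (-1.31), Matn4 (-0.95) and Matn3 (-0.71), matrilin genes, and Xylt1 (-0.69), which starts the sugar chains of proteoglycans. The others were 3110079O15Rik (-1.83), Chadl (-1.16), Sox8 (-0.65), Cytl1 (-0.60), Chad (-0.55), Mia (-0.53), Susd5 (-0.44) and Col27a1 (-0.42). Genes of skeletal muscle moved in the same direction: 9 of 13 fell, and their summed level was 559 to 708 CPM in Dup-L and 935 to 1183 CPM in WT 2 and WT 4. In the other lists, 4 of 7 nerve and glia genes, 4 of 8 endothelium genes, 3 of 8 hypertrophic cartilage and bone genes, 3 of 9 connective tissue genes, 3 of 8 limb mesenchyme genes and 1 or 2 genes of each remaining list fell, and between 0 and 2 genes of each list rose. With the offsets Msx1, a gene of undifferentiated mesenchyme, was the only gene of these lists that passed (-1.22). Their part in the result was not tested.

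In the other groups, the fit to all 15 libraries called no member in edgeR, where 0.00566% of all genes passed in Dup-C, 3.85% in Dup-LΔBor, 4.03% in ΔBor het and 1.27% in ΔBor hom. The members' median log2 fold change was -0.50 in Dup-C, -0.02 in Dup-LΔBor, -0.12 in ΔBor het and -0.41 in ΔBor hom, where the medians over all genes were between -0.03 and -0.01. Unadjusted p-values under 0.05 numbered 2 in Dup-C, 2 in Dup-LΔBor, 1 in ΔBor het and 1 in ΔBor hom, where the share of all genes was 16.6% in Dup-C, 23.7% in Dup-LΔBor, 25.9% in ΔBor het and 26.6% in ΔBor hom. Among the 4 groups, DESeq2 called members only in Dup-LΔBor, Fgfr3 (0.59, adjusted p = 0.02) and Hapln1 (-0.49, adjusted p = 0.0284), where edgeR had adjusted p-values of 0.0817 and 0.0865. DESeq2 called 9.3% of all genes there. These values set mutant libraries high in Pitx1 against WT libraries of both kinds. The WT libraries low in Pitx1 lay above those high in Pitx1 for 9 of 10 members, against 22.9% of all genes: WT 2 and WT 4 had Col9a3 at 184 and 182 CPM, against 90.2 and 98.8 CPM for WT 1 and WT 3.

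Sox9 itself varied little. Its level (CPM) was 174 and 141 in Dup-C, 131 and 142 in Dup-L, 184, 160, 127 and 140 in Dup-LΔBor, 187 and 183 in ΔBor het, 183 in ΔBor hom and 162, 161, 136 and 124 in WT. All 3 ΔBor libraries lay above all WT libraries, and the other groups overlapped WT. In the libraries high in Pitx1, 22.8% of all genes had both ΔBor het libraries above both WT libraries. That separation is easier to reach, and no share was computed for all 3 ΔBor libraries against all WT libraries. Over the 11 libraries high in Pitx1 the highest level was 1.47 times the lowest. Sox9 did not pass in any genotype comparison: its log2 fold change was 0.07 in Dup-C, 0.02 in Dup-LΔBor, 0.29 in ΔBor het and 0.29 in ΔBor hom in those libraries (SE between 0.14 and 0.20, edgeR adjusted p between 0.317 and 0.943), and -0.09 in Dup-L over all 15.

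The relation of each member to Sox9 was computed for log2 CPM over the 11 libraries high in Pitx1, with a 2-sided permutation p over libraries adjusted over all 17654 genes. No member passed, and no gene did (smallest adjusted p = 0.265), while 8.76% of all genes and 2 of 10 members had an unadjusted p under 0.05. Those 2 were Col11a1 (Pearson r = 0.67, permutation p = 0.0247, Spearman rho = 0.67, permutation p = 0.0282) and Col9a1 (r = 0.63, permutation p = 0.0154, rho = 0.79, permutation p = 0.00564). The adjusted Pearson p was 0.559 for each of the 2, and the adjusted Spearman p 0.49 for Col11a1 and 0.489 for Col9a1. Pearson r was 0.50 for Col9a2, 0.47 for Hapln1, 0.45 for Col11a2, 0.44 for Col2a1, 0.32 for Acan, 0.16 for Col9a3, 0.15 for Matn1 and -0.16 for Fgfr3. Thus 9 of 10 were above 0 with a median of 0.44, beside 51.1% of all genes and a median of 0.02.

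Without the 2 libraries farthest from the median Sox9 level (Dup-LΔBor R4 and WT 3), r for Col11a1 was 0.62 and for Col9a1 0.70, and the median over the members 0.44. Within the 6 libraries of the first batch all 10 members had r above 0, with a median of 0.69, beside 0.02 over all genes. The highest there was Col11a1 (r = 0.90, exact permutation p = 0.0333, adjusted p = 0.415), and no value was computed for the 5 libraries of the second batch. Over all 15 libraries the median was 0.11 and 7 of 10 were above 0. After the genotype means were removed, r over the 10 libraries of groups with replicates lay between 0.16 (Hapln1) and 0.82 (Col2a1), with no test. In a group of 2 libraries the deviations mirror each other, so these 10 points are not independent. With the level of Sox9 as a covariate, Fgfr3 in Dup-LΔBor had a log2 fold change of 0.91 (SE 0.15, edgeR adjusted p = 0.0173).

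**Figure D5:**
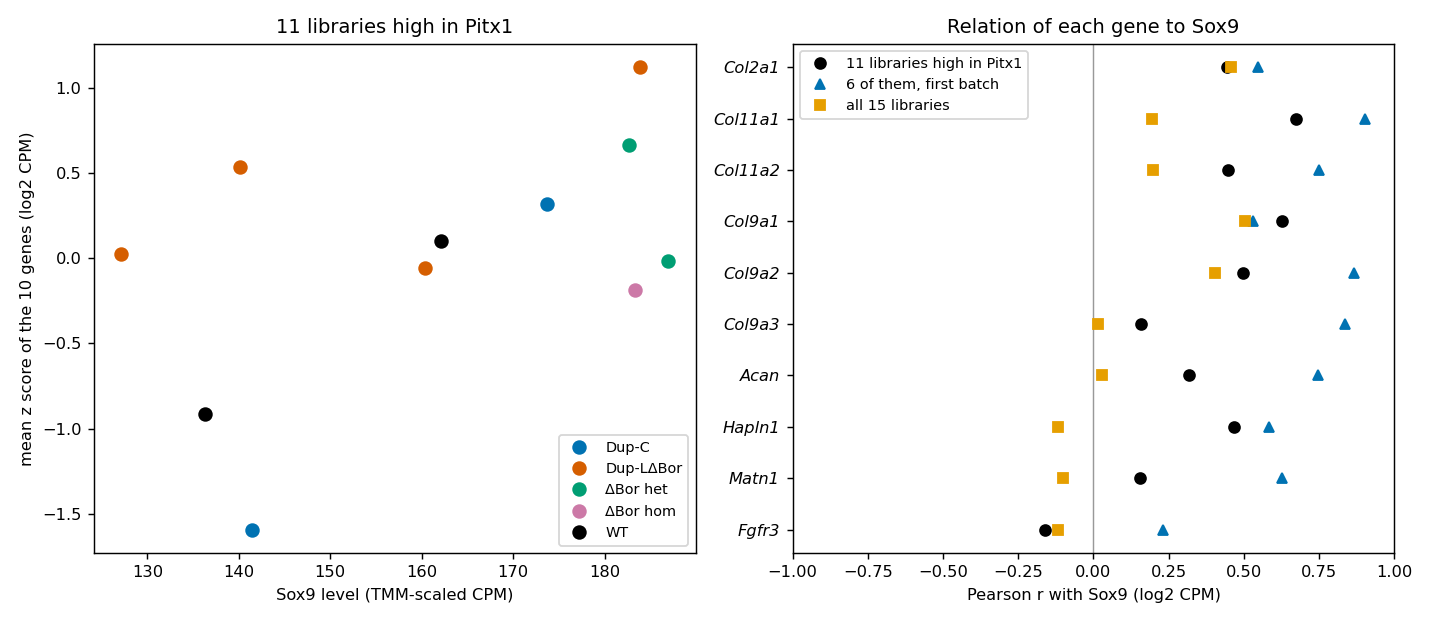
Left, mean z score of the log2 CPM of the 10 genes (vertical axis) against the Sox9 level (horizontal axis, TMM-scaled CPM) in the 11 libraries high in Pitx1, 1 point per library coloured by group; right, Pearson r of each gene with Sox9 in those 11 libraries, in the 6 of the first batch and in all 15. The lowest point on the left is the second Dup-C library (-1.59), and on the right only Fgfr3 is below 0 in the 11 libraries (-0.16).

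The genes outside the set whose log2 CPM followed the mean of the members most closely over the 11 libraries were Ihh (Pearson r = 0.96), a hedgehog ligand of maturing cartilage, Susd5 (0.94), Prelp (0.92), a matrix proteoglycan gene, Fam101a (0.92), Col27a1 (0.92), a fibrillar collagen of cartilage, Tbkbp1 (0.91), Irf2bp2 (0.90) and Nog (0.90), a BMP antagonist. They are the 8 highest of all tested genes outside the set, over libraries that share batches and depth. Ihh ranged between 1.53 and 6.43 CPM. With the same mean, Sox9 had r = 0.49, Sox5 0.74 and Sox6 0.77, and 10.5% of all genes were above Sox9.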

How the data were processed

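RNA libraries were polyA-selected (TruSeq RNA V2) per the labels' protocols. The authors deposited a table of raw read counts per gene and a table of FPKM. Per the submitters' processing notes, STAR, DESeq2, bedtools 2.17.0 and build mm9 were used, with settings not given in the sources used here. From the deposited counts, levels were computed as CPM with TMM scaling over 15 libraries, and genotypes were tested with edgeR 4.0.16 (filterByExpr, robust quasi-likelihood, Benjamini-Hochberg over all genes tested), in R 4.3.3. The deposited FPKM values were used for levels per length and, as log2(FPKM + 1) or log2(FPKM + 0.1), in limma 3.58.1. DESeq2 1.42.0 was an alternative. A library counted as high in Pitx1 above 10 CPM. The split was made on a limb-type gene that is not a member. The relation to Sox9 used log2 CPM (prior count 2) and 100000 permutations. GC content and length came from the GENCODE annotation of another build and covered 91.5% of genes. Dup-LΔBor columns are numbered R2 to R5 in the table and replicates 1 to 4 in the labels, and were matched by group only. The members, the lists, the limits and the named genes (all members, called cartilage genes and the 8 genes closest to the members' mean) were chosen with earlier results of these data known. The scripts were tested on simulated data.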

Additional observations from a re-analysis of the deposited data

How the results depend on the processing

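Without WT 1 the number of members called in the 11 libraries high in Pitx1 was 1 in Dup-C, ΔBor het and ΔBor hom (0 with all libraries), where 5.37%, 11% and 12.2% of all genes passed, so leaving out 1 library gave 0 to 1 in each, and 1 to 2 in Dup-LΔBor, where Col9a3 also passed without either Dup-C library. A fit left with a lone WT library takes the spread of WT from the remaining groups. Limma on log2(FPKM + 1) without a filter called 0 in Dup-LΔBor. Over all 15 libraries, Dup-L had 0 members called with GC and length offsets, with that limma fit and with Pitx1 as a covariate, and 7 in the libraries low in Pitx1 only. Those 4 libraries gave 1 and 0 without a Dup-L library, 8 without WT 2 and 9 without WT 4, where Col11a1 had -0.30 and Col9a1 -0.28, of opposite sign to the values over all 15. Leaving out 1 library gave 0 to 1 in Dup-L and in Dup-LΔBor, where DESeq2 called 2 and the Pitx1 covariate 1. Col2a1 in Dup-L had the opposite sign with GC and length offsets (0.0302). The causes were not tested. Over all members, comparisons and alternatives, 1948 recomputed fold changes kept their sign and their side of the threshold, 163 that passed under neither setting changed sign, 33 passed only under the alternative, 13 lost the call and 3 changed sign with a call. The relation to Sox9 called 0 members in every alternative run.

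With the replicate numbers as a block, 0 members were called in Dup-C, Dup-L and ΔBor het. Col2a1 in Dup-L then had a log2 fold change of -0.98 with an adjusted p of 0.0514 in edgeR, and 0, 1374 and 37 genes were called in the 3 groups. No pairing by replicate number was seen: deviations of same-numbered libraries from their group means correlated between -0.18 and 0.10 over 6 pairs of groups. With so few libraries per group, and with WT 1 high and WT 2 low in Pitx1, these values cannot exclude a pairing. The columns of Dup-LΔBor carry no matched number.

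The number of genes called depended on the tool and on single libraries. In the 11 libraries, DESeq2 called 3 genes in Dup-C, 1667 in Dup-LΔBor, 1096 in ΔBor het and 651 in ΔBor hom, where edgeR called 1, 834, 52 and 12. Leaving out 1 library gave 0 to 936 genes in Dup-C, 183 to 2130 in Dup-LΔBor, 9 to 1923 in ΔBor het and 9 to 2132 in ΔBor hom. Depth limits Matn1 most, which had as few as 15 counts in a library.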
